A study of Mus musculus with 54 samples.

Results

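The MAP kinase phosphatases *Dusp1*, *Dusp2*, *Dusp4*, *Dusp5*, *Dusp6*, *Dusp7*, *Dusp8*, *Dusp10* and *Dusp16* were followed through the day in the mouse suprachiasmatic nucleus (SCN), the hypothalamic pacemaker. The members were taken by gene symbol, as the rows of the count table whose Ensembl identifier carries one of these names, and all 9 were found among its 30031 genes. RNA was sequenced from SCN tissue cut out by laser-capture microdissection (LCM) from adult male C3H/HeH mice, aged between 10 and 12 weeks and kept on a 12 hr light, 12 hr dark cycle. Tissue was collected at 6 timepoints given as Zeitgeber time (ZT, hours after lights on), with ZT2, ZT6 and ZT10 in the light and ZT14, ZT18 and ZT22 in the dark. Each timepoint had 3 biological replicates (A, B and C), each a pool of 5 mice sequenced on 3 lanes. All groups share this inbred strain, sex and lighting, and the column names of the table mark every replicate WT, so that only time of day differs by design. Because each replicate is a pool, the spread reported here is between pools and not between animals, and no library was made in constant darkness, so light and circadian time coincide.

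MAP kinases carry signals from the cell surface to the nucleus and are active only while a threonine and a tyrosine of their activation loop are phosphorylated. MAP kinase phosphatases are dual-specificity enzymes that remove both phosphates, and since several of their genes are themselves induced by ERK signalling they act as feedback brakes. In the SCN, light at night reaches the clock through glutamate release from retinal fibres, ERK activation and CREB-dependent transcription. *Dusp1*, *Dusp2*, *Dusp4* and *Dusp5* encode nuclear, inducible enzymes, *Dusp6* and *Dusp7* encode cytoplasmic enzymes selective for ERK, and *Dusp8*, *Dusp10* and *Dusp16* encode enzymes that prefer JNK and p38.

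Promoter sequence is shown first for *Dusp1*, *Dusp8* and *Dusp6*, since the first was the daytime member with the highest level, the next the most abundant of all and the last the night-time member with the highest level. RefSeq start sites (GRCm38.p6) were matched for 8 of the 9 members (not *Dusp4*), and the 250 bases before each start were searched on both strands for 7 motifs. The letters searched were TGACGTCA (the cAMP response element, where CREB binds), TGACG (its half-site, which every full element contains), CACGTG (the E-box of CLOCK and BMAL1), TTATGTAA (the D-box), TGANTCA (the AP-1 site), CCGGAAGT (an ETS site) and the CArG box of serum response factor. The windows lie at chr17:26508473-26508722 on the minus strand for *Dusp1*, chr7:142095285-142095534 on the minus strand for *Dusp8* and chr10:99262981-99263230 on the plus strand for *Dusp6*, and run 5′ to 3′ up to the base before the start. Capitals mark cAMP response elements, their half-sites and E-boxes.
Dusp1: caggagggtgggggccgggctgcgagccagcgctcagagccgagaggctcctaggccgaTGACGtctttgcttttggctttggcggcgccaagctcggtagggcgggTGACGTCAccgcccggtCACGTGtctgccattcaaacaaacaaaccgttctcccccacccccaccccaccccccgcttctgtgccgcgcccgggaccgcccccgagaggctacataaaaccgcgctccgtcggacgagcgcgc
Dusp8: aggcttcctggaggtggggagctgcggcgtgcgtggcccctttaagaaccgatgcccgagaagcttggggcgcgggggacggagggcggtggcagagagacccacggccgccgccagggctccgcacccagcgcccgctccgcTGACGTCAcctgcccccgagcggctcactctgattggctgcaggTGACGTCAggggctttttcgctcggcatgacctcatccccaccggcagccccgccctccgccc
Dusp6: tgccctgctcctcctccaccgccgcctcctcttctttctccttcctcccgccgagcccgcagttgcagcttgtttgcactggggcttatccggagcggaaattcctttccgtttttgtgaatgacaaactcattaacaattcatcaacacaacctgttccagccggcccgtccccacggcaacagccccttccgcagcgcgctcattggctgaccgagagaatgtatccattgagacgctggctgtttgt

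*Dusp1* held 1 full cAMP response element, which begins 143 bases before the start, with a further half-site 191 bases before it and an E-box 126 bases before it. *Dusp8* held 2 full elements, beginning 107 and 63 bases before its start. Of 32851 RefSeq promoter windows of the same length, 508 (1.55%) held the full element and 10 (0.0304%) held 2 or more. The half-site was present in 17.8% of all windows, and among the members also in *Dusp5* and *Dusp16*. The E-box was present in 6.02% of windows and, beside *Dusp1*, in *Dusp2*. *Dusp5* held 2 CArG boxes, a motif found in 1.47% of windows. None of the 7 motifs was found in the windows of *Dusp6*, *Dusp7* or *Dusp10*, and no member window held the D-box, AP-1 or ETS letters, which were present in 0.819%, 6.75% and 2.88% of all windows. These matches describe the letters only.

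The deposited table held between 15412981 counts (ZT18 replicate C) and 35820945 counts (ZT14 replicate A) per replicate, with a median of 25075231, so that 3 reads corresponded to between 0.0825 and 0.183 CPM (counts scaled to library size with TMM factors). The libraries fell into 3 clusters of neighbouring timepoints, one around lights on (ZT22 and ZT2), another at midday (ZT6 and ZT10) and the last in the night (ZT14 and ZT18). The study names both timepoint and sequencing batch for its own plot of principal components, but the batch of each library is not given in the sources used here, so the part of batch in the differences between these clusters was not tested. ZT18 replicate C, the shallowest library, stood apart from the other ZT18 libraries on the first component, with a score of 23.65 against -0.49 and -2.41. SCN neuron markers (*Avp*, *Vip*, *Six6*, *Lhx1*, *Prok2* and others) were read in every library for all 10 of the genes listed. In bulk tissue, fewer cells of a type and less RNA per cell cannot be told apart.

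Of the 9 members, 6 changed over the day and 3 did not pass the test. edgeR's quasi-likelihood test for any difference among the 6 timepoints called *Dusp1*, *Dusp4*, *Dusp6*, *Dusp7*, *Dusp8* and *Dusp10* at an adjusted p under 0.05, while 44.0% of the 18941 genes tested were called, and all 9 members passed the filter on low counts. A second requirement, a 24 hr rhythm by JTK_CYCLE, was met by 5 of these (all but *Dusp8*), against 29.9% of all genes tested. Their highest timepoints were spread around the cycle, at ZT2 for *Dusp4*, *Dusp8* and *Dusp10*, at ZT6 for *Dusp1* and at ZT14 for *Dusp6* and *Dusp7*. The median log2 ratio of the highest to the lowest timepoint mean was 2.40 over the 9 members, ranging from 0.96 for *Dusp16* to 4.87 for *Dusp4*, beside 1.59 over the 16881 tested genes whose lowest mean was above 0.

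**Figure D1:**
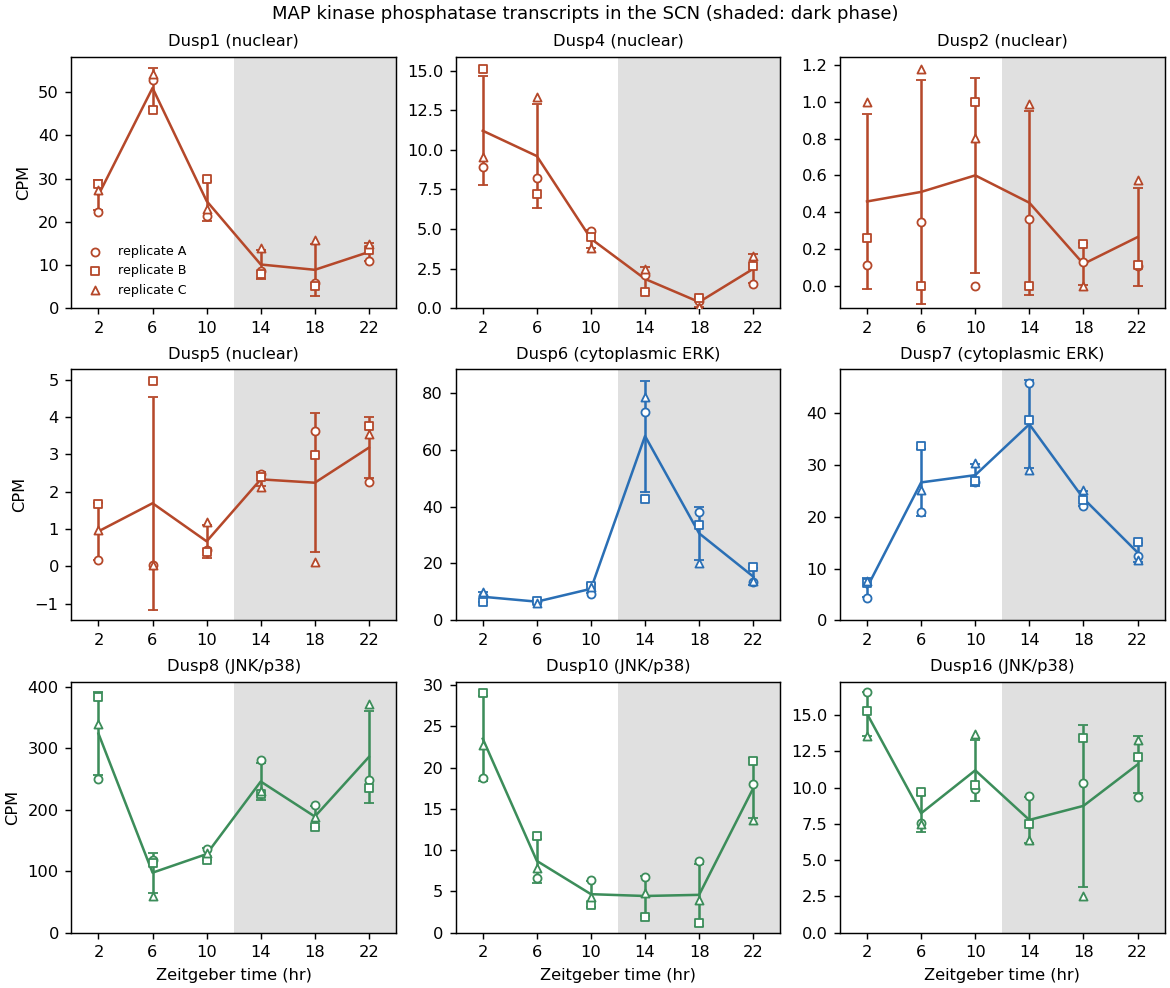
Level of each of the 9 members in CPM (vertical axis, separate scale per panel) against Zeitgeber time in hours, with open symbols for replicates A, B and C, the line joining the means of 3 replicates and bars for the SD. Dusp1 and Dusp4 stand highest in the light, Dusp6 in the shaded dark phase, and the Dusp5 bar at ZT6 runs below 0 because a single replicate carries the mean.

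Among the nuclear enzymes, *Dusp1* encodes a phosphatase for ERK, JNK and p38 that is itself an immediate early gene. It lies on the minus strand at chr17:26505590-26562128 (GENCODE M21, GRCm38; ENSMUSG00000024190), a span that reaches far upstream of the RefSeq start. At ZT6 its replicates read 52.8, 45.8 and 54.3 CPM (mean 51.0 ± 4.52 SD, n = 3), and at ZT2 they read 22.3, 28.8 and 27.3 CPM. At ZT10 the replicates read 21.4, 30.0 and 23.0 CPM, at ZT14 8.67, 7.84 and 13.9 CPM, and at ZT18 5.76, 5.11 and 15.7 CPM. At ZT22 the replicates read 10.9, 13.4 and 14.8 CPM. All 3 replicates at ZT6 lay above those of every other timepoint, ZT2 overlapped ZT10, and the 3 timepoints of the dark phase overlapped each other but none of the day. The highest mean was 5.75 times the lowest, at ZT18 (8.87 ± 5.96 CPM), the adjusted p of the time test was 5.75e-05, and JTK_CYCLE placed the peak at ZT6 (p = 1.33e-05, exact null distribution, 18 replicates).

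*Dusp4* encodes a closely related nuclear phosphatase and lies at chr8:34807297-34819894 on the plus strand (ENSMUSG00000031530). Its replicates read 8.93, 15.1 and 9.52 CPM at ZT2, and 8.24, 7.20 and 13.3 CPM at ZT6. They then read 4.90, 4.47 and 3.78 CPM at ZT10, and 2.09, 0.987 and 2.45 CPM at ZT14. At ZT18 the values were 0.448, 0.642 and 0.0610 CPM, the last from a single read, and by ZT22 they were 1.49, 2.65 and 3.30 CPM. The groups at ZT2 and ZT6 overlapped, as did those at ZT14 and ZT22, whereas ZT10 lay between them and ZT18 below all others with no overlap. With means of 11.2 ± 3.43 CPM at ZT2 and 0.384 ± 0.296 CPM at ZT18, *Dusp4* had the widest range of the family (29.2-fold, adjusted p = 7.72e-05), and its JTK_CYCLE peak was at ZT6 (exact p = 2.57e-05). Per kilobase of exon, *Dusp1* exceeded *Dusp4* at all 6 timepoints, by a log2 ratio between 0.98 ± 0.30 (ZT2) and 4.62 ± 2.72 (ZT18, where the single read of replicate C sets the spread).

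The remaining nuclear genes had lower levels. *Dusp5*, which encodes an ERK-specific enzyme, read 2.48, 2.38 and 2.12 CPM at ZT14 and 2.25, 3.75 and 3.55 CPM at ZT22, and all of these lay above its values at ZT2 (0.170, 1.68 and 0.963 CPM) and ZT10 (0.437, 0.391 and 1.18 CPM). At ZT6, however, replicate B read 4.97 CPM while replicates A and C held 1 read each, and at ZT18 replicate C held 2 reads while A and B read 3.62 and 2.99 CPM. ZT6 and ZT18 therefore overlapped every other timepoint, and the time test was not passed (adjusted p = 0.635). Without ZT6 replicate B *Dusp5* passed the time test and JTK_CYCLE and was called between light and dark. Of *Dusp5*, 22.1% of the exon bases are shared with the antisense gene *AC137853.2*, so reads of both genes may not have been separated. *Dusp2*, whose product is best known from activated lymphocytes, was close to the limit of detection, with no reads in 4 of 18 libraries and at most 36 reads in any. Its timepoint means lay between 0.118 and 0.600 CPM (adjusted p = 0.872). *Dusp9*, the remaining classical member of the family and not among the 9, had reads in 7 libraries only and an adjusted p of 0.213.

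*Dusp6* encodes the cytoplasmic ERK phosphatase and is a widely used readout of ERK pathway output. It lies at chr10:99263231-99267489 on the plus strand (ENSMUSG00000019960), directly downstream of the window printed above that held none of the motifs searched. Its replicates read 73.2, 42.5 and 78.6 CPM at ZT14, 38.1, 33.4 and 20.2 CPM at ZT18, and 13.4, 18.7 and 14.0 CPM at ZT22. In the light it read 8.65, 6.46 and 9.83 CPM at ZT2, 6.94, 6.77 and 6.06 CPM at ZT6, and 9.27, 12.2 and 11.9 CPM at ZT10. The order ZT14, ZT18, ZT22, ZT10 had no overlap between neighbours, while ZT10, ZT2 and ZT6 overlapped in turn, so *Dusp6* was low through the day and, within the night, lower at each later timepoint. The highest mean, 64.8 ± 19.5 CPM, was 9.83 times the lowest, 6.59 ± 0.469 CPM at ZT6. The adjusted p of the time test was 2.28e-07, the smallest of the family, and JTK_CYCLE, which fits symmetric waves, gave ZT18 as the peak (exact p = 0.000246).

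*Dusp7*, the other cytoplasmic ERK phosphatase, lies at chr9:106368632-106375724 on the plus strand (ENSMUSG00000053716). Its replicates read 4.30, 7.23 and 7.51 CPM at ZT2 and 20.9, 33.7 and 25.1 CPM at ZT6. They read 26.7, 26.8 and 30.4 CPM at ZT10, 45.8, 38.7 and 28.9 CPM at ZT14, 22.1, 23.2 and 25.1 CPM at ZT18, and 12.5, 15.1 and 11.7 CPM at ZT22. Unlike *Dusp6* it was already high at ZT6, where its replicates overlapped those of ZT10 and ZT18, and only ZT22 and then ZT2 stood clear below. The highest mean, 37.8 ± 8.48 CPM at ZT14, was 5.96 times the mean at ZT2, 6.35 ± 1.78 CPM (adjusted p = 9.60e-06; JTK_CYCLE peak ZT14, exact p = 0.000147). Per kilobase, the log2 ratio of *Dusp6* to *Dusp7* was -1.89 ± 0.37 at ZT6 and 0.85 ± 0.66 at ZT14 (SD, n = 3), so that *Dusp7* was the more abundant of the pair at midday and *Dusp6* after lights off. The replicate ranges of this ratio, -2.21 to -1.49 and 0.23 to 1.54, did not overlap.

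Of the JNK and p38 phosphatases, *Dusp8* was the most abundant member per length, with a mean of 43.5 CPM per kb over the 18 libraries against 7.27 for *Dusp6*, 6.74 for *Dusp1* and 6.72 for *Dusp7*. It lies at chr7:142079490-142095843 on the minus strand (ENSMUSG00000037887), a span that reaches upstream of the RefSeq start and so takes in the promoter window with 2 cAMP response elements. Its replicates read 250.4, 384 and 339 CPM at ZT2 and 119, 114 and 60.2 CPM at ZT6. They read 136, 118 and 130.5 CPM at ZT10, 280.5, 226 and 231 CPM at ZT14, 207, 172 and 189 CPM at ZT18, and 249, 236 and 372 CPM at ZT22. ZT6 and ZT10 overlapped each other and lay below all other timepoints, while ZT2, ZT22 and ZT14 overlapped in turn. The highest mean was 324 ± 67.8 CPM (ZT2) and the lowest 97.7 ± 32.5 CPM (ZT6), a 3.32-fold range with an adjusted p of 7.03e-05. The profile did not pass JTK_CYCLE (exact p = 0.0709), and the replicates at ZT18 lay below those of ZT14 and ZT22 as well as above those of ZT10.

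*Dusp10*, at chr1:184013302-184075636 on the plus strand (ENSMUSG00000039384), read 18.8, 29.0 and 22.8 CPM at ZT2 and 18.0, 20.8 and 13.6 CPM at ZT22. At ZT6 it read 6.64, 11.7 and 7.81 CPM, and over ZT10, ZT14 and ZT18 its 9 libraries ranged from 1.22 to 8.64 CPM. The 2 timepoints around lights on overlapped each other and lay above all others, and ZT10, ZT14 and ZT18 overlapped throughout. Its highest mean, 23.5 ± 5.18 CPM at ZT2, was 5.28 times the lowest, 4.45 ± 2.44 CPM at ZT14 (adjusted p = 0.00205; JTK_CYCLE peak ZT2, exact p = 0.000986). *Dusp16*, whose product also acts on JNK, had means between 15.1 ± 1.51 CPM (ZT2) and 7.78 ± 1.56 CPM (ZT14) and did not pass the time test (adjusted p = 0.304). In ZT18 replicate C it read 2.56 CPM against 10.3 and 13.4 CPM in the other ZT18 replicates, and without that library the time test was passed.

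Summed per kilobase within each role, the 3 groups had their highest means at different timepoints, which was not tested. The nuclear genes together stood at 19.8 ± 1.81 CPM per kb at ZT6 (range 18.5 to 21.9) and at 3.78 ± 0.918 at ZT18 (range 3.10 to 4.83). *Dusp1* made up most of that sum (15.4 CPM per kb at ZT6), and the other nuclear genes had their highest means elsewhere, *Dusp4* at ZT2, *Dusp5* at ZT22 and *Dusp2* at ZT10. The cytoplasmic ERK genes stood at 32.0 ± 6.16 at ZT14 (range 25.1 to 37.0) and at 4.54 ± 0.725 at ZT2 (range 4.04 to 5.38). The JNK and p38 genes, mostly *Dusp8*, stood at 76.3 ± 15.5 at ZT2 and 24 ± 7.02 at ZT6. The share of the nuclear genes in the family total was accordingly 37.5% ± 7.93 at ZT6 and 5.47% ± 1.47 at ZT14, while that of the cytoplasmic ERK genes was 18.6% ± 2.86 and 35.4% ± 2.49. Between *Dusp6* and *Dusp1* the log2 ratio per kilobase moved from -2.87 ± 0.20 at ZT6 to 2.75 ± 0.35 at ZT14. The 9 genes together were highest at ZT2 (93.4 ± 18.1 CPM per kb) and lowest at ZT10 (50.9 ± 1.10), but the replicates of ZT2 overlapped those of ZT14 (89.8 ± 12.9) and the replicates of ZT10 those of ZT6 (53.8 ± 6.11).

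**Figure D2:**
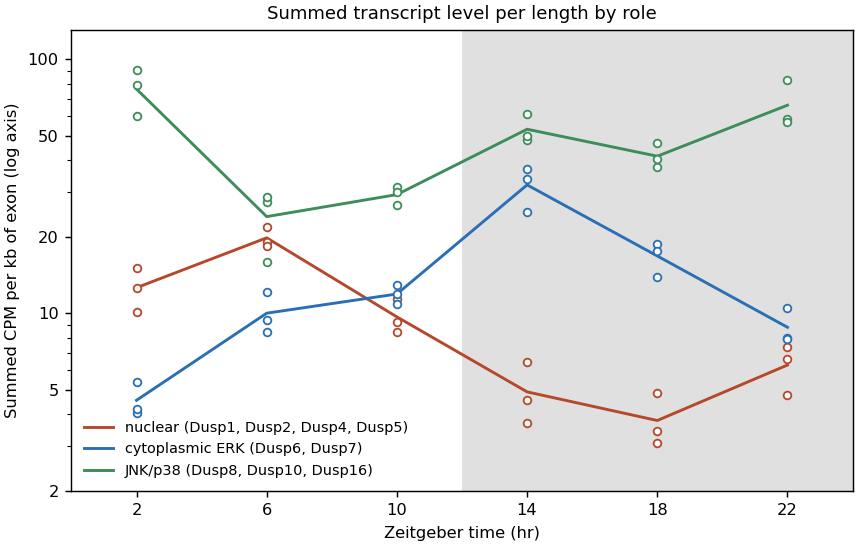
Summed CPM per kb of exon (log axis) against Zeitgeber time in hours for the nuclear, cytoplasmic ERK and JNK/p38 genes, with 1 open circle per replicate and lines through the means of 3 replicates. The nuclear sum, mostly Dusp1, is highest at ZT6 and the cytoplasmic ERK sum at ZT14, and the JNK/p38 sum is lowest at ZT6.

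Comparison of the light phase with the dark phase, the mean of ZT2, ZT6 and ZT10 against the mean of ZT14, ZT18 and ZT22, called 5 members. *Dusp1* was higher in the light, its 9 light libraries reading 21.4 to 54.3 CPM (median 28.8) and its 9 dark libraries 5.11 to 15.7 CPM (median 10.9), a log2 difference of 1.61 ± 0.21 SE (adjusted p = 3.27e-05). *Dusp4* was also higher in the light, with 3.78 to 15.1 CPM (median 8.24) against 0.0610 to 3.30 CPM (median 1.49), a log2 difference of 2.66 ± 0.34 (adjusted p = 3.60e-05). *Dusp6* was lower in the light, with 6.06 to 12.2 CPM (median 8.65) against 13.4 to 78.6 CPM (median 33.4), a log2 difference of -1.88 ± 0.17 (adjusted p = 8.73e-07). In these 3 genes, already called on the same values, no light library overlapped a dark one. The share of all genes separated in this way was not computed. Among all genes tested 9.56% were called higher in the light and 14.3% lower, and the median log2 difference of all genes was -0.13. *Dusp8* was called lower in the light by -0.57 ± 0.14 (adjusted p = 0.00560) although its phases overlapped, since ZT2 was among its highest timepoints. *Dusp7* was called at -0.43 ± 0.15 (adjusted p = 0.0419) with overlapping phases, and this call was lost in 18 alternatives, among them 14 of the 18 that each leave out 1 replicate (all but ZT2 replicate B, ZT6 replicate B, ZT14 replicate C and ZT18 replicate C).

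Steps between neighbouring timepoints showed when each member moved. From ZT2 to ZT6, where 33.8% of all genes were called, *Dusp7* rose by a log2 difference of 2.06 ± 0.27 (adjusted p = 1.38e-05) and *Dusp1* by 0.96 ± 0.35 (adjusted p = 0.0415), while *Dusp8* fell by 1.73 ± 0.24 on the log2 scale (adjusted p = 2.94e-05). From ZT10 to ZT14, across lights off, 16.8% of all genes were called. *Dusp6* rose there by 2.54 ± 0.30 (adjusted p = 2.46e-05), the largest called rise across lights off in the family, *Dusp8* rose by 0.94 ± 0.24 (adjusted p = 0.0107) and *Dusp1* fell by 1.29 ± 0.35 (adjusted p = 0.0172), beside a median of 0.12 over all genes. From ZT18 to ZT22, where 18.1% of all genes were called, *Dusp4* rose by 2.61 ± 0.61 (adjusted p = 0.00578) and *Dusp10* by 1.92 ± 0.56 (adjusted p = 0.0226). Over the same interval *Dusp6* fell by 0.99 ± 0.28 (adjusted p = 0.0206) and *Dusp7* by 0.84 ± 0.26 (adjusted p = 0.0288). These 3 steps all cross between clusters of libraries. Several calls rested on single replicates: without ZT18 replicate B only *Dusp4* was called from ZT18 to ZT22, without ZT18 replicate C *Dusp7* and *Dusp10* were not, without ZT22 replicate A or C *Dusp6* and *Dusp7* were not, without ZT18 replicate A *Dusp6* was not and without ZT22 replicate B *Dusp10* was not. From ZT10 to ZT14 only *Dusp6* was called without ZT10 replicate B or ZT14 replicate A, and *Dusp1* was not called without ZT14 replicate B. The rise of *Dusp1* from ZT2 to ZT6 was not called without ZT22 replicate B or any replicate of either timepoint.

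Inside the clusters no member was called by edgeR at any step, and few genes were called at all: 0.0475% from ZT6 to ZT10, 0.570% from ZT14 to ZT18 and 0.0317% from ZT22 to ZT2. At an unadjusted p under 0.05 there were 2 members from ZT6 to ZT10 (*Dusp1* and *Dusp6*, against 10.8% of all genes), 3 from ZT14 to ZT18 (*Dusp4*, *Dusp6* and *Dusp7*, against 13.5%) and 4 from ZT22 to ZT2 (*Dusp1*, *Dusp4*, *Dusp6* and *Dusp7*, against 3.59%). DESeq2 on the same counts called no member from ZT6 to ZT10, *Dusp4* and *Dusp6* from ZT14 to ZT18, and *Dusp4* and *Dusp7* from ZT22 to ZT2, where it called 246, 842 and 34 genes in all. From ZT22 to ZT2, across lights on, the edgeR estimates were 1.01 ± 0.35 for *Dusp1*, 2.18 ± 0.58 for *Dusp4*, -0.89 ± 0.29 for *Dusp6* and -1.04 ± 0.26 for *Dusp7*, with adjusted p between 0.632 and 1.00. These 4 genes were picked by p on the same values, and in none of them did the replicates of ZT22 and ZT2 overlap. Nor did they in *Dusp5* and *Dusp16*, with unadjusted edgeR p of 0.199 and 0.369. From ZT14 to ZT18 the estimates were -2.19 ± 0.60 for *Dusp4* (adjusted p = 0.101), -1.08 ± 0.28 for *Dusp6* (adjusted p = 0.0861) and -0.69 ± 0.26 for *Dusp7* (adjusted p = 0.227), again with no overlap between the replicates. Those of *Dusp8* did not overlap either, with an unadjusted edgeR p of 0.127. From ZT6 to ZT10 the estimate for *Dusp1* was -1.04 ± 0.35 (adjusted p = 0.359) and that for *Dusp6* 0.75 ± 0.29 (adjusted p = 0.399), and in neither gene did the replicates overlap. Separation was also seen there in *Dusp4*, *Dusp10* and *Dusp16*, with unadjusted edgeR p of 0.0596, 0.120 and 0.302. The share of all genes separated at these steps was not computed. The share of the variance among the 6 timepoint means that lay between the 3 clusters was 77.4% for *Dusp1*, 65.4% for *Dusp4*, 83.7% for *Dusp6*, 82.3% for *Dusp7*, 92.9% for *Dusp8* and 91.2% for *Dusp10*, beside a median of 90.7% over all genes called for time.

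**Figure D3:**
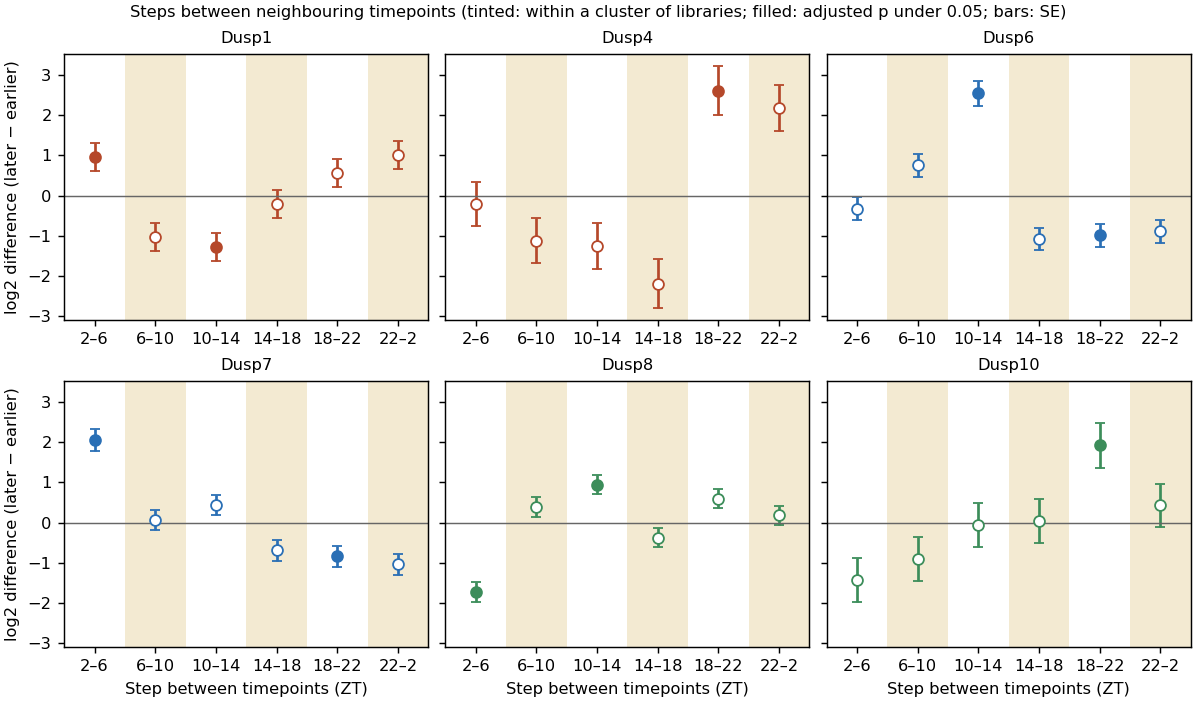
Log2 difference (later minus earlier timepoint, bars SE) for the 6 members past the time test at each of the 6 steps around the cycle, with tinted steps inside a cluster of libraries and filled symbols for an adjusted p under 0.05. Filled symbols stand only at the 3 steps between clusters, the highest being Dusp4 from ZT18 to ZT22 at 2.61.

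Other genes of the MAP kinase pathways, taken as lists, were called for time at shares of 45.5% to 75.0% per list, beside 44.0% of all genes. Of 8 other phosphatases that act on MAP kinases 5 were called, among them *Dusp26* (highest at ZT6, 106 CPM), *Ptpn5* (striatal-enriched phosphatase, highest at ZT14, 308 CPM), *Ptprr* and *Dusp3* (both highest at ZT2, 58.3 and 381 CPM). Of 14 tested genes of the ERK cascade 10 were called, with 5 of them highest at ZT2, including the kinases *Braf* (319 CPM at ZT2, 84.8 at ZT10), *Araf* and *Rps6ka2* and the GTPase gene *Nras*. Of 19 tested genes of the JNK and p38 cascades 11 were called, including *Map2k7* (58.7 CPM at ZT6, 21.3 at ZT2), *Mapk10* (542 CPM at ZT22, 156 at ZT6), *Mapk8ip3* and *Map2k4*. The median log2 range was 1.26 for the ERK cascade and 1.43 for the JNK and p38 cascades, against 2.40 for the 9 phosphatases.

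Feedback inhibitors that act on Ras and Raf formed a list of 11 tested genes, of which 5 were called. *Rasal1*, a Ras GTPase-activating protein gene, stood at 30.3 CPM at ZT14 and 1.71 CPM at ZT2, with a called fall from ZT14 to ZT18 (8.13 CPM, adjusted p = 0.0492), and so shared its highest timepoint with *Dusp6*. *Spry2* was highest at ZT6 (166 CPM), as *Dusp1* was, and *Spred1* at ZT22 (85.7 CPM). *Nf1* was about as high at ZT14 (58.7 ± 8.45 CPM) as at ZT6 (60.1 ± 14.9 CPM), with 33.6 CPM at ZT10 between them. Of the 20 activity-induced genes 15 were called, with a median log2 range of 2.72. Of these 5 were highest at ZT6 and 6 at ZT14. *Sik1* (77.9 CPM at ZT6, 21.8 at ZT10, adjusted p for that step 0.0228), *Per1* (70.0 CPM at ZT6) and *Junb* (14.6 CPM at ZT6) shared the highest timepoint of *Dusp1*. *Arc*, by contrast, stood at 209 CPM at ZT14 against 4.51 CPM at ZT2, and *Egr1* at 78.0 CPM at ZT14, falling to 19 CPM at ZT18 (adjusted p = 0.0242), both highest at ZT14 as *Dusp6* was. *Fosl2* was highest at ZT2 (70.3 CPM) and fell between ZT6 (34.2 CPM) and ZT10 (8.58 CPM) with an adjusted p of 0.0200, *Per1* fell from ZT14 to ZT18 (31.0 to 11.4 CPM, adjusted p = 0.0324), and *Sik1* rose from ZT22 to ZT2 (9.89 to 33.7 CPM, adjusted p = 0.0394). Of 8 tested genes of transcription factors that ERK signalling targets, mostly of the ETS and CREB families, 4 were called, namely *Crem* (88.0 CPM at ZT2, 27.6 at ZT14), *Etv1*, *Etv5* and *Srf*, which encodes serum response factor. No sharing of a timepoint between lists was tested.

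**Figure D4:**
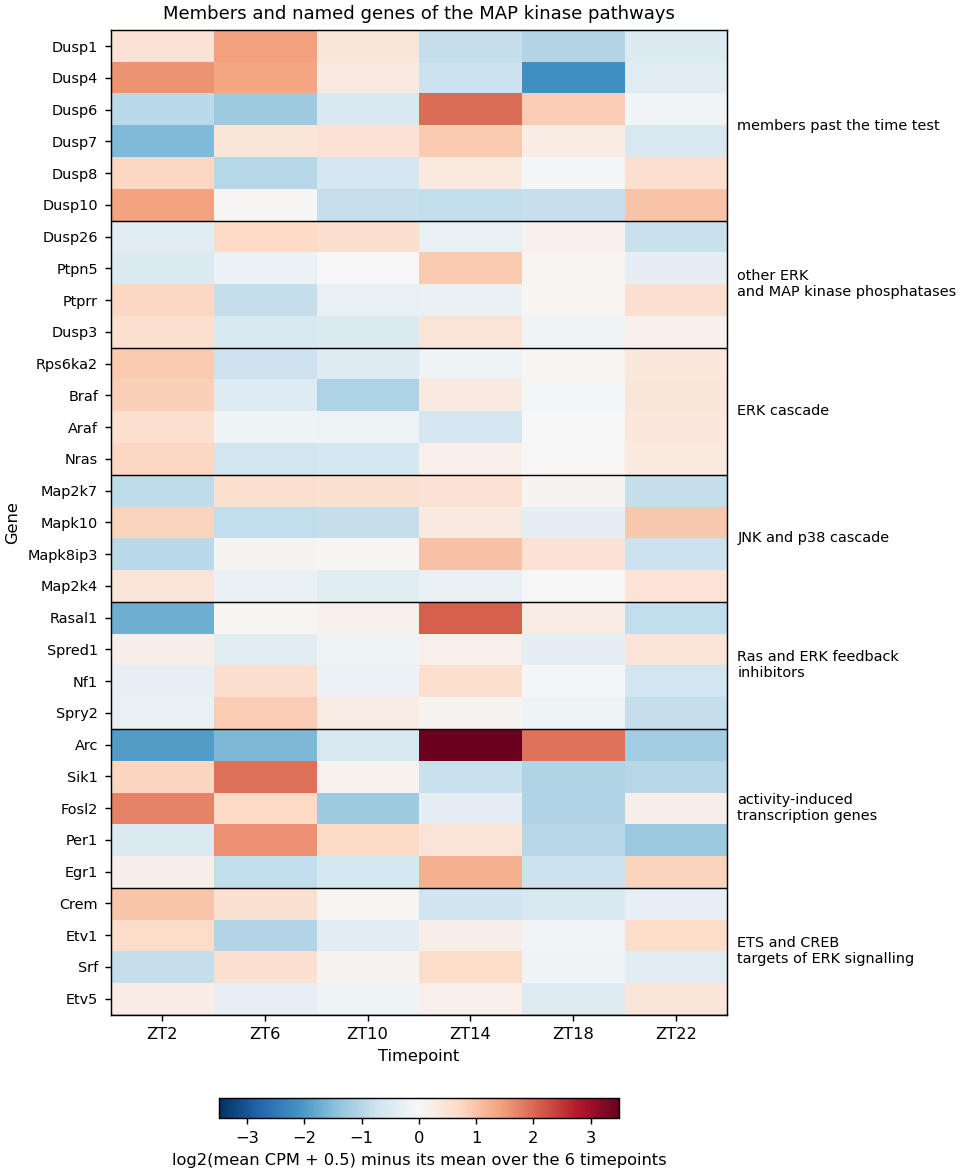
Relative level of the 6 members past the time test and 25 pathway genes, coloured by log2(mean CPM + 0.5) minus its mean over the 6 timepoints, with timepoints across and genes grouped by list. The row of Dusp6 is highest at ZT14 like those of Rasal1, Arc and Egr1, and the row of Dusp1 is highest at ZT6 like those of Sik1 and Per1.

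The genes with the most similar time courses were found by the root mean square difference of log2 CPM over the 18 libraries, after setting each gene to a mean of 0, among 11185 tested genes (11186 for *Dusp4*) with a mean of at least 5 CPM. For *Dusp1* they were *Nr1d2*, which encodes the clock repressor REV-ERB beta (difference 0.42), and *Ptp4a1* (0.43), where the difference of *Dusp1* from a flat line was 0.97. For *Dusp4* they were *Rasl11b* (0.56) and the clock output gene *Dbp* (0.63), against 1.34 for a flat line. For *Dusp6* they were the neurofilament gene *Nefl* (0.42) and the synaptic gene *Cplx1* (0.46), against 1.12. For *Dusp7* they were *Pitpnm2* (0.30) and *Cygb* (0.32), against 0.86, and for *Dusp8* the potassium channel subunit gene *Dpp6* (0.19) and *Cptp* (0.23), against 0.68. For *Dusp10* the nearest genes, *Nsun3* (0.65) and *Nell1* (0.70), were farther off relative to its own 1.13. These likenesses include any difference that the clusters of libraries share.

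Markers of other cells also moved with time and are given beside these results. The summed level of 5 markers of telencephalic excitatory neurons (*Slc17a7*, *Neurod6*, *Tbr1*, *Emx1* and *Neurod2*) ranged from 89.5 to 197 CPM over the replicates of ZT14, where *Dusp6* was highest, against 38.9 to 73.6 CPM at ZT10, 24.8 to 45.0 CPM at ZT18, 51.6 to 213 CPM at ZT22 and 14.2 to 71.2 CPM over ZT2 and ZT6. Of these 5 genes 3 were called for time, *Slc17a7* fell from ZT14 to ZT18 (61.0 to 15.5 CPM, adjusted p = 0.0352), and *Emx1* and *Neurod2* had no reads in 1 library each. The 8 oligodendrocyte markers summed to between 4789 and 6132 CPM at ZT14 and ZT18 and to between 1311 and 4450 CPM at the other timepoints, and 7 of them were called. The 8 astrocyte markers, all called, summed to between 6422 and 8632 CPM at ZT22 and ZT2, where *Dusp8* and *Dusp10* were high, and to between 2952 and 3916 CPM at ZT6 and ZT10. Of these 8 genes 5 were highest at ZT2 and 1 at ZT22, but 2 (*Gfap* and *Aldh1l1*) were highest at ZT18. *Gfap* had means of 149 CPM at ZT2 and 151 at ZT22 against 332 at ZT14 and 459 at ZT18. The 10 SCN neuron markers, of which 9 were called, summed to between 7429 and 13504 CPM at ZT2, ZT6, ZT10 and ZT22 and to between 4083 and 6310.4 CPM at ZT14 and ZT18. *Scg2* was the largest part of this sum, with means of 7931 CPM at ZT2, 6629 at ZT22, 3262 at ZT14 and 3875 at ZT18. The markers did not move together. Lowest means were at ZT22 for *Avp*, *Grp* and *Six6* and at ZT14 for *Scg2*, *Vip* and *Nms*. They were at ZT18 for *Prok2*, *Six3* and *Rgs16* and at ZT2 for *Lhx1*. Of 8 microglial and 8 endothelial markers 6 and 4 were called, with sums between 105 and 287 CPM and between 137 and 321 CPM. Among 9 tested genes of neighbouring hypothalamic neurons 3 were called (*Oxt* among them), the sum lay between 30.6 and 112 CPM, and *Crh*, *Agrp*, *Hcrt*, *Pmch* and *Galr1* had no reads in at least 1 library. The part of these cell types in the time courses of the phosphatases was not tested.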

How the data were processed

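Reads from LCM-dissected SCN were, in the study, trimmed, aligned to mm10 with GSNAP and counted per gene with HTSeq, and lanes of a replicate were combined. The deposited table used here holds raw counts as whole numbers for 30031 genes in 18 replicates, each a separate pool of mice. Its header is shifted by one cell, so names were assigned to the columns after the identifiers. A second table deposited by the authors holds normalized signal, read counts after division by a library size factor. Its values were whole multiples of one read, within 0.1 read, in 100% of cases, which let reads be recovered as an alternative. Those reads equalled the counts for 92.7% to 94.2% of genes per replicate, but for only 8.72% to 12.1% at ZT6 and ZT10, with a median log2 ratio of -0.14 to -0.12 there. No sample column was left unused (0).

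A gene entered the tests (18941 in all) if more than 6 replicates held at least 1 read of it. edgeR 4.0.16 in R 4.3.3 gave TMM-scaled CPM and quasi-likelihood tests from one fit to all 18 replicates, with Benjamini–Hochberg adjustment over all genes tested and a threshold of 0.05. JTK_CYCLE was rewritten in Python 3.11.15 (24 hr period, 6 lags, exact null distribution with a Bonferroni factor). Levels per kb use merged GENCODE M21 exons on GRCm38. Scripts were tested on simulated counts. Alternatives were DESeq2 1.42.0, its size factors, upper-quartile scaling, other filters, the recovered reads, a replicate block, omission of each replicate, and limma 3.58.1 cosinor regression. The 3-read floors cover counting error only, whereas each SD and SE includes the spread between replicates.

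The members and the gene lists were chosen with earlier results of these data known. The genes named are all 9 members, Dusp9, up to 4 genes per pathway list with the smallest adjusted p for time plus any past the threshold inside a cluster of libraries, and the 2 genes nearest to each called member. A few further list genes and the markers were named after their values were seen. Hras, Elk1, Spry3 and Kiss1 were listed but are not analysed here. The results for 2 further listed genes are not reported here.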

Additional observations from a re-analysis of the deposited data

How the results depend on the processing

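The number of members called for time (6) ranged from 5 to 7, the number called cycling (5) from 4 to 6 and the number called between light and dark (5) from 4 to 6 over the alternatives tried. With 1 replicate left out at a time, the number called ranged from 2 to 5 for ZT2 to ZT6, from 1 to 3 for ZT10 to ZT14 and from 1 to 5 for ZT18 to ZT22. It fell to 1 for ZT10 to ZT14 without ZT10 replicate B or ZT14 replicate A, fell for ZT18 to ZT22 to 1 without ZT18 replicate B and to 2 without ZT22 replicate A or C, and reached 5 for ZT2 to ZT6 without ZT18 replicate C (Dusp10 and Dusp16 gained). The rise of Dusp1 from ZT2 to ZT6 was also lost with upper-quartile scaling and with no filter, as was the fall of Dusp7 from ZT18 to ZT22. DESeq2 gave 2 members for ZT14 to ZT18 and 2 for ZT22 to ZT2, where edgeR gave 0 in both. Dusp5 was gained in the time test without ZT6 replicate B, and Dusp4 could not be tested when every replicate had to hold 10 counts. In no alternative that tested them were the calls of Dusp6 from ZT10 to ZT14, of Dusp7 and Dusp8 from ZT2 to ZT6 or of Dusp4 from ZT18 to ZT22 lost. With the recovered reads the median log2 difference of all genes from ZT2 to ZT6 was -0.20, against -0.03. The causes of these changes were not tested.

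Replicate letters did not pair the samples: the deviations of same-lettered libraries from their group means had a median correlation of 0.00 (-0.19 to 0.10, 45 pairs). A fit with the replicate block called 6 members for time and changed no member's call. Dusp2, Dusp5 and Dusp9 held 3 reads or fewer in some libraries, as did Dusp4 in ZT18 replicate C. At ZT6, Dusp5 held 1 read in replicate A (24623369 counts in all) and 105 reads in replicate B (22170674 counts in all). The part of depth in these low values was not tested.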
